A study of Mus musculus with 12 samples.

Results

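The 6 genes followed here through an RNA-seq study of mouse embryonic fibroblasts encode inhibitors of cyclin-dependent kinases (CDKs). They are Cdkn2a, Cdkn2b, Cdkn2c and Cdkn2d of the Ink4 family, with Arf as a second product of Cdkn2a, and Cdkn1b and Cdkn1c of the Kip family. Cdkn1a was left aside by the choice of members. The members were taken by symbol from the deposited table of 19439 gene entries, where 5 of the 6 names had a row. All 5 reached at least 1 RPKM (reads mapped per length of gene and per depth of the library) in at least 3 of the 12 libraries, the filter that 11461 entries passed, and were tested. Cdkn1c, which encodes the imprinted inhibitor Kip2, was not analysed here. The libraries came from 2 3T3 lines, named for the passage schedule that selects immortal fibroblasts, a p53 -/- line (p53-null) and a line with wild-type p53 (WT). The p53-null line was kept for 18 h in DMEM without glutamine (p53-null glutamine-free) or with 2 mM glutamine (p53-null complete), and the WT line likewise (WT glutamine-free and WT complete), with 3 libraries in each of the 4 groups. Each genotype is represented by 1 line, so a difference between genotypes cannot be told apart from any other difference between these lines, and the labels say neither how the null allele was made nor whether libraries of a group were separate cultures, so p-values measure a spread that may be technical.

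Ink4 proteins bind Cdk4 and Cdk6 and keep them from pairing with D cyclins, which leaves the retinoblastoma protein unphosphorylated and the cell before S phase. Kip proteins bind whole cyclin-CDK complexes, chiefly those of Cdk2 with cyclin E or A. Arf shares exons with Ink4a but is read in another frame and acts elsewhere: it binds Mdm2, the ligase that degrades p53, and so raises p53. Mouse fibroblasts in culture accumulate Ink4a and Arf with passage, and in 3T3 cultures the lines that grow on have commonly lost either Arf, often by deletion of Cdkn2a, or p53. The state of the Cdkn2a and Cdkn2b locus is therefore a mark of the route by which a line became immortal.

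Sums of RPKM were 284426 to 319735 per library, between 10306 and 10671 entries reached 1 RPKM, and libraries of a group correlated at r = 0.9981 to 0.9989 across tested genes over 12 pairs, as a description. The depth is not stated in the table, and the steps between its low values put it near 37.7 to 46.8 M reads, with 53.7 to 57.2% of values whole within 0.05 of a read, so true counts were not recovered. Trp53, the gene named in the genotype, had 33.9, 34.6 and 35.2 RPKM in p53-null glutamine-free and 27.9, 29.0 and 29.6 RPKM in p53-null complete libraries, against 109, 112 and 114 RPKM in WT glutamine-free and 58.7, 57.8 and 59.0 RPKM in WT complete libraries. Every p53-null library lay below every WT library of the same medium. One number for a whole gene cannot tell where along it the reads lie, so it does not check the null allele itself. The fibroblast marker list summed to 893 to 920 RPKM in p53-null glutamine-free and 1990 to 2014 RPKM in p53-null complete libraries. In WT libraries it summed to 529 to 536 RPKM without glutamine and 3218 to 3238 RPKM in complete medium. In every group 8 of its 9 genes had a mean of at least 1 RPKM, with Thy1 near or at 0. These sums pool genes that differed between the lines in both directions. In complete medium 7 of the 8 tested markers were lower in the p53-null line and 1 higher (42.5% and 48.4% of all tested genes). Without glutamine 5 were lower and 3 higher (40.0% and 51.4%). In complete medium Vim was at 1730 RPKM in p53-null against 760 RPKM in WT cells, and Dcn at 18.0 against 472 RPKM. Of 6 epithelial markers in the table, Krt18 and Krt19 were above 1 RPKM in the p53-null line, where the list summed to 77.3 to 84.7 RPKM, against at most 0.253 RPKM in WT libraries, while Epcam and Cdh1 were near 0 in both lines. Blood markers summed to at most 9.15 RPKM with Ptprc near 0, endothelial markers to at most 1.58 RPKM, and muscle and neural markers to at most 3.15 RPKM in the p53-null and 37.2 RPKM in the WT line. The part of these marker shifts in the results below was not tested.

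Cdkn2a and Cdkn2b lie side by side on the minus strand of chromosome 4 (mm10), at 89274471 to 89294653 and 89306299 to 89311039, with 11.6 kb between them. Cdkn2a has 2 annotated coding transcripts. The upstream start, at 89294653 in GENCODE M21, opens an exon of 320 bases that belongs to Arf, and the downstream start, at 89282192, opens an exon of 207 bases that belongs to Ink4a. Both splice to the same exons, and 575 bases, 64.2% of the Arf transcript and 67.5% of the Ink4a transcript, are shared. One RPKM value therefore pools the products of 2 promoters, and none of the values below says which of Ink4a and Arf was read. Both promoters are shown, because that single value covers them, beside those of Cdkn2b, its neighbour, of Cdkn2d, which of the 5 members fell most in WT and least in p53-null cells, and of Cdkn2c, which differed most between the lines in each medium. Each sequence is RefSeq's (GRCm38.p6, the assembly that mm10 names) and runs 5′ to 3′ along the gene, from 250 bases before to 50 bases after a start. Capitals mark matches on either strand to the E2F sites TTTCCCGC, TTTGGCGC, TTTCGCGC and TTTGCCGC, the CCAAT box, the TATA box TATAAA, the cyclic AMP response element TGACGTCA, the ATF4-CEBP element TGATGNAA, the FoxO site GTAAACA, the E-box CACGTG and the AP-1 site TGACTCA. GC boxes (GGGCGG) were counted and left in lower case.
Cdkn2a, Arf start, chr4:89294570-89294869, minus strand: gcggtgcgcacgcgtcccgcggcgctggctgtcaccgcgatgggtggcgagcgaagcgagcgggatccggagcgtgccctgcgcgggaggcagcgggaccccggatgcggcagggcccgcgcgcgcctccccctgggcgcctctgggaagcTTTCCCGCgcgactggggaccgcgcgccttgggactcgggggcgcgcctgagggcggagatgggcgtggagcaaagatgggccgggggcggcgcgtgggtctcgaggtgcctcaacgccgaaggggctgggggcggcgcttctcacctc
Cdkn2a, Ink4a start, chr4:89282143-89282442, minus strand: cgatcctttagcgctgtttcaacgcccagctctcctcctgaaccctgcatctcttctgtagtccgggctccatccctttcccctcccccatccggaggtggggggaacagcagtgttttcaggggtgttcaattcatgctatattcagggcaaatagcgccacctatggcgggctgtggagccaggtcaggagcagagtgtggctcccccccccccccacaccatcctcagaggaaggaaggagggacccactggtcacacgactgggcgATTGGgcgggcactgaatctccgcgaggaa
Cdkn2b, chr4:89310983-89311282, minus strand: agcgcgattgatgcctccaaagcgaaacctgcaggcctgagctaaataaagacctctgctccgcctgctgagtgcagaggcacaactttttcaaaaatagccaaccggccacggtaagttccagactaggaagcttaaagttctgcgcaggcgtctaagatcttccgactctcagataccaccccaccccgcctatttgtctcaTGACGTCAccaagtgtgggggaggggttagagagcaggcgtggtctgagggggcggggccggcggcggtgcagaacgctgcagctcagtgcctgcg
Cdkn2d, chr9:21291160-21291459, minus strand: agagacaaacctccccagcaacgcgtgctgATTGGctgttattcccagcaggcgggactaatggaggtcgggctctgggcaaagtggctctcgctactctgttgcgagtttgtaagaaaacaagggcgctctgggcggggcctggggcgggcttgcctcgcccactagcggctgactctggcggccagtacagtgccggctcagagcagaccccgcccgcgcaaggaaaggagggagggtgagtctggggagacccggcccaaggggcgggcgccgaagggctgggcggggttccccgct
Cdkn2c, upstream start, chr4:109666707-109667006, minus strand: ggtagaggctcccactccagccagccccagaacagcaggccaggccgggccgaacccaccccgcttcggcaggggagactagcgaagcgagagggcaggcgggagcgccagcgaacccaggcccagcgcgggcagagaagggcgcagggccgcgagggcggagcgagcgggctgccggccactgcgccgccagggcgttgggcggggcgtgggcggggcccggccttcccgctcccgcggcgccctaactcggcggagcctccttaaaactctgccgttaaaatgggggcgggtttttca

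The Arf window was 77.0% G and C with 45 CpG, and the Ink4a window 60.3% with 12 CpG, against medians of 52.7% and 7 over 32851 promoter windows of the same length. An E2F site, TTTCCCGC, stood 99 to 92 bases before the RefSeq start of Arf, and 1.07% of all windows hold those letters. The Ink4a window held a CCAAT box 20 to 24 bases past its start, which overlaps its single GC box at 23 to 28 bases. The Cdkn2b window had TGACGTCA 46 to 39 bases before the start, which 1.79% of windows hold. The Cdkn2d window held 5 GC boxes and a CCAAT box, the upstream Cdkn2c window 4 GC boxes and none of the other motifs. At least 1 GC box was present in 6 of the 7 windows of the 5 members and in 35.7% of all windows, and CCAAT, which 37.4% of all windows hold, in 4 of the 7. No window held TGATGNAA (3.97% of all), GTAAACA (3.65%) or TATAAA (13.6%). These are matches of letters and show no binding.

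The pair at the Ink4-Arf locus was transcribed in both lines and was lower without glutamine in each. Cdkn2a had 50.1, 52.9 and 51.9 RPKM in p53-null glutamine-free libraries, against 82.0, 82.3 and 84.4 RPKM in p53-null complete libraries. The WT glutamine-free libraries had 38.0, 41.1 and 40.8 RPKM, against 109, 107 and 108 RPKM in the WT complete libraries. The 4 groups did not overlap, and the WT line held both the highest and the lowest of them. The change on withdrawal was -0.67 ± 0.0279 (SE) on the log2(RPKM + 1) scale in the p53-null line and -1.42 ± 0.0279 in the WT line (limma adjusted p = 1.27e-10 and 2.1e-14), a mean RPKM 1.61-fold and 2.71-fold lower. Cdkn2a ranked high among the tested genes all the same, with 90.5% of them at a lower mean in p53-null glutamine-free, 95.3% in p53-null complete, 86.1% in WT glutamine-free and 96.4% in WT complete cells.

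Cdkn2b, which encodes the Ink4b inhibitor that TGF-beta induces in epithelial cells, had 16.0, 16.8 and 16.3 RPKM in p53-null glutamine-free libraries, against 21.2 RPKM in each of the 3 p53-null complete libraries. In the WT line it stood at 12.5, 11.6 and 12.1 RPKM without glutamine, against 29.4, 28.7 and 28.1 RPKM in complete medium. The order of the 4 groups was that of Cdkn2a, again without overlap. The log2 change was -0.35 ± 0.0266 in the p53-null and -1.18 ± 0.0266 in the WT line (limma adjusted p = 4.8e-08 and 7.61e-14). Cdkn2a exceeded Cdkn2b, per length, by a factor of 3.15 ± 0.026 (SD) in p53-null glutamine-free and 3.92 ± 0.063 in p53-null complete libraries, and of 3.32 ± 0.26 in WT glutamine-free and 3.78 ± 0.080 in WT complete libraries. The factor was lower without glutamine in each line, and the WT glutamine-free and WT complete ranges, 3.03 to 3.53 and 3.72 to 3.87, did not overlap.

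The genes around the pair were described too, each by its own RPKM, which does not show how far an active state of the locus extends. Mtap, the methylthioadenosine phosphorylase gene that lies 93.4 kb from Cdkn2a and is often lost with it in deletions, was at 84.0 ± 1.40 RPKM in p53-null glutamine-free and 61.8 ± 0.823 RPKM in p53-null complete cells, and at 110 ± 1.32 RPKM in WT glutamine-free and 88.3 ± 0.394 RPKM in WT complete cells (mean ± SD, n = 3). It rose on withdrawal in both lines, by 0.44 ± 0.016 (SE) and 0.32 ± 0.016 on the log2 scale in p53-null and WT cells (limma adjusted p = 3.2e-11 and 2.8e-10), the opposite direction to its neighbour pair. No library had less than 38.0 RPKM of Cdkn2a, 11.6 RPKM of Cdkn2b or 60.9 RPKM of Mtap, so transcripts of all 3 genes were present in both lines. A gene's RPKM shows neither a point mutation nor the loss of a single promoter or exon, and the protein was not measured.

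Within 2 Mb on either side the table held 32 other genes, of which 7 were tested. The 25 below the filter, mostly type I interferon genes, had group means of at most 0.155 RPKM. Of the 7, Hacd4, Gm12610 and Elavl2 passed the filter through WT libraries alone, which fixed that they were lower in the p53-null line in at least 1 medium. The other 4 (Mllt3, Focad, Klhl9 and Mtap) were lower in the p53-null line in both media, where 40.0% of all tested genes were called lower in glutamine-free and 42.5% in complete medium. Hacd4, a fatty acid elongation gene, was at 0.0834 ± 0.00837 RPKM in p53-null glutamine-free and 0.207 ± 0.0161 RPKM in p53-null complete cells, against 0.383 ± 0.0292 RPKM in WT glutamine-free and 9.28 ± 0.292 RPKM in WT complete cells. Mllt3, which encodes a transcription elongation subunit, averaged 2.75 ± 0.0296 and 3.00 ± 0.0975 RPKM in p53-null glutamine-free and complete cells, against 3.65 ± 0.0231 and 11.4 ± 0.0749 RPKM in the WT groups of the same media. Hacd4 passed the filter through WT complete and Elavl2 through WT glutamine-free libraries alone, which fixed that Hacd4 fell and Elavl2 rose in WT cells. With these counted, the 7 went both ways on withdrawal. In p53-null cells 1 was higher and 3 were lower (50.0% and 32.0% of all tested genes), and in WT cells 2 were higher and 5 lower (46.0% and 44.0%). In p53-null cells 5 were lower with median centring, and 2 were higher under 6 other settings.

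**Figure D1:**
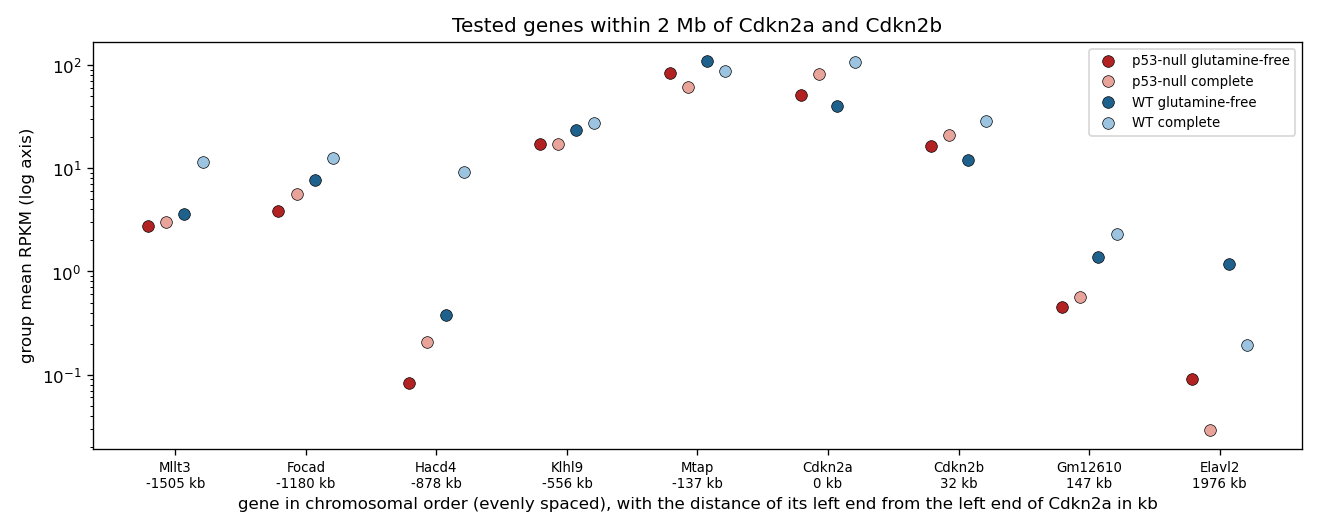
Mean RPKM (log axis) of the 9 tested genes within 2 Mb of Cdkn2a and Cdkn2b, in chromosomal order and evenly spaced, with colours for the 4 groups. Klhl9, Mtap, Cdkn2a and Cdkn2b are above 10 RPKM in all 4 groups, and Mtap is higher without glutamine in both lines while the pair is lower.

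Away from that locus, Cdkn2c and Cdkn2d, whose Ink4c and Ink4d products act on the same kinases, fell too but in different proportions. Cdkn2c lies on chromosome 4 at 109660876 to 109667189, minus strand, and had 5.86, 5.22 and 5.81 RPKM in p53-null glutamine-free libraries, against 9.14, 9.33 and 9.28 RPKM in p53-null complete libraries. The WT line had 20.5, 21.2 and 21.4 RPKM without glutamine, against 33.8, 33.5 and 33.8 RPKM with it. Here the lines, not the media, set the order: every WT library exceeded every p53-null library. The log2 change on withdrawal was -0.63 ± 0.0321 in p53-null and -0.66 ± 0.0321 in WT cells (limma adjusted p = 9.56e-10 and 2.58e-10), and the line difference, p53-null minus WT, was -1.73 ± 0.0321 in glutamine-free and -1.76 ± 0.0321 in complete medium (1.53e-14 and 1.1e-14), a mean RPKM 3.73-fold and 3.64-fold lower.

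Cdkn2d (chromosome 9, 21288410 to 21291407, minus strand) had 7.47, 8.12 and 8.09 RPKM in p53-null glutamine-free libraries, against 9.31, 9.54 and 9.48 RPKM in p53-null complete libraries. It had 3.49, 3.73 and 3.45 RPKM in WT glutamine-free libraries, against 16.7, 17.6 and 17.0 RPKM in WT complete libraries. The p53-null groups sat close together between the WT groups, with no overlap between any pair of groups. The WT fall, a log2 change of -1.99 ± 0.0347 and a mean RPKM 4.81-fold lower, was the largest of the 5 members, and 305 of the 11461 tested genes fell further in WT cells. In p53-null cells the change was -0.23 ± 0.0347, a mean 1.2-fold lower (limma adjusted p = 6.7e-15 in WT and 3.77e-05 in p53-null cells).

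Cdkn1b, on the plus strand of chromosome 6 at 134920401 to 134925513, encodes Kip1, whose protein is controlled largely through its degradation. Its transcript had 13.7, 13.9 and 14.6 RPKM in p53-null glutamine-free libraries, against 22.5, 23.5 and 21.5 RPKM in p53-null complete libraries. The WT line had 16.1, 15.2 and 14.7 RPKM without glutamine, against 31.5, 29.3 and 29.8 RPKM with it. Without glutamine the highest p53-null library (14.64 RPKM) and the lowest WT library (14.66 RPKM) all but met, while in complete medium the lines were well apart. The log2 change was -0.64 ± 0.0407 in p53-null and -0.93 ± 0.0407 in WT cells (limma adjusted p = 8.36e-09 and 7.42e-11). No exon base of the 5 members lies under an annotated exon of the other strand, so counting without strand would not mix them with an annotated antisense gene. In bulk libraries fewer cells with a transcript and less of it per cell cannot be told apart.

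**Figure D2:**
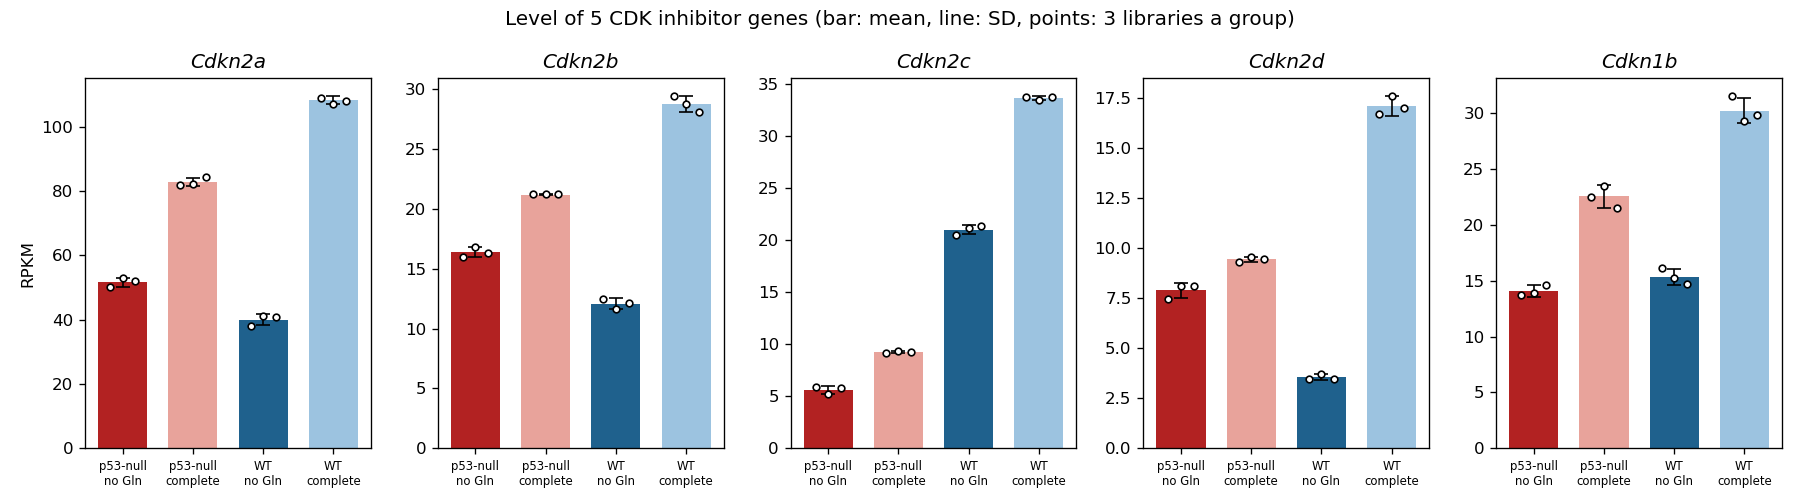
RPKM of the 5 tested inhibitor genes in the 4 groups (bars are means, lines are SD, open points are the 3 libraries, and each panel has its own axis from 0). Each gene is lower without glutamine in both lines, and Cdkn2c stands apart as higher in every WT library than in every p53-null library.

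Counted together, all 5 tested members fell on withdrawal in the p53-null line, where 32.0% of all tested genes were called lower and 82.0% either way, and all 5 fell in the WT line, where 44.0% were called lower and 90.1% either way. In each line the glutamine-free libraries of all 5 lay wholly below the complete ones, as for 33.2% of tested genes in p53-null and 44.1% in WT cells. The median log2 change of the members was -0.63 in p53-null and -1.18 in WT cells, beside medians over all tested genes of 0.08 and 0.01. Falling in both lines was seen for 23.0% of tested genes. With so many genes called, the size of a change says more than its call: 3 of the 5 members passed a log2 change of -1 in the WT line (12.9% of tested genes) and none did in the p53-null line (2.03%). The 5 values summed to 95.6 ± 2.18 RPKM in p53-null glutamine-free and 145 ± 0.979 RPKM in p53-null complete libraries, and to 92.0 ± 1.16 RPKM in WT glutamine-free and 218 ± 2.42 RPKM in WT complete libraries. Cdkn2a made up the largest share in each group, from 43.5% in WT glutamine-free to 57.1% in p53-null complete libraries. Cdkn2c held 5.89% and 6.36% of the sum in p53-null glutamine-free and complete libraries, against 22.9% and 15.5% in WT libraries of the same media.

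**Figure D3:**
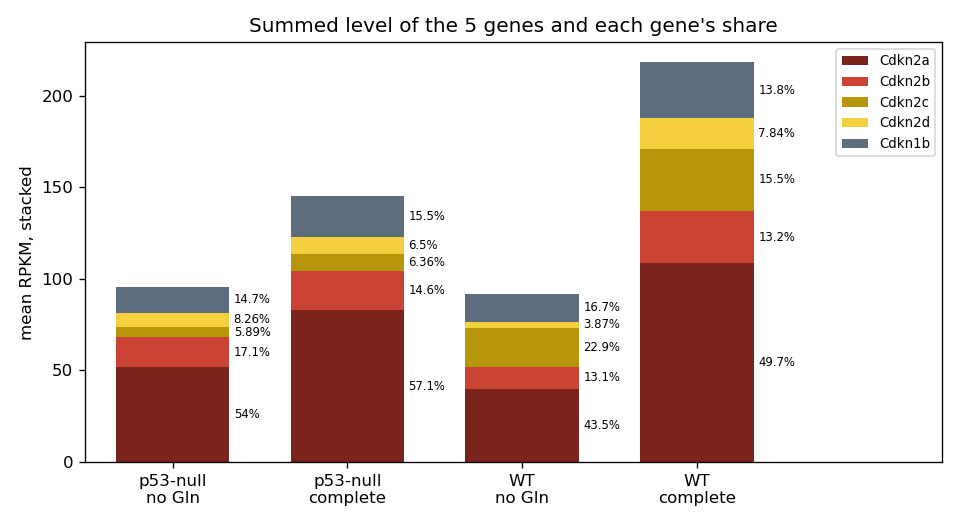
Mean RPKM of the 5 genes stacked by group, with each gene's share of the sum in percent. The glutamine-free sums of 95.6 and 92.0 RPKM are near each other in the p53-null and WT lines, while Cdkn2c takes 22.9% of the WT sum and 5.89% of the p53-null sum.

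The order of levels within a group was Cdkn2a first everywhere. In p53-null complete cells Cdkn1b and Cdkn2b followed, and Cdkn2d and Cdkn2c came last with overlapping libraries, at 9.31 to 9.54 RPKM and 9.14 to 9.33 RPKM. In p53-null glutamine-free cells the order was Cdkn2a, Cdkn2b, Cdkn1b, Cdkn2d and Cdkn2c, with no overlap of neighbours. In WT complete cells Cdkn2c came second at 33.5 to 33.8 RPKM, and Cdkn1b (29.3 to 31.5 RPKM) overlapped Cdkn2b (28.1 to 29.4 RPKM), with Cdkn2d last. In WT glutamine-free cells Cdkn2c was second, then Cdkn1b, Cdkn2b and Cdkn2d, without overlap.

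Between the lines, the direction for 3 of the members turned with the medium. In complete medium all 5 were lower in the p53-null line (42.5% of tested genes were called lower, 48.4% higher and 90.9% either way), with no overlap of libraries, as for 42.7% of tested genes. Their log2 differences, p53-null minus WT, were -0.38 ± 0.0279 for Cdkn2a, -0.42 ± 0.0266 for Cdkn2b, -0.79 ± 0.0347 for Cdkn2d and -0.41 ± 0.0407 for Cdkn1b, beside that of Cdkn2c above (limma adjusted p = 5.32e-07 or less). In glutamine-free medium Cdkn2a (0.36 ± 0.0279), Cdkn2b (0.41 ± 0.0266) and Cdkn2d (0.96 ± 0.0347) were higher in the p53-null line (limma adjusted p = 3.57e-08 or less), where 51.4% of tested genes were called higher, 40.0% lower and 91.4% either way. Cdkn2c and Cdkn1b lay wholly below WT there, as did 40.1% of tested genes, and Cdkn2c alone of the members was lower by a log2 difference past -1, in glutamine-free (7.88% of tested genes) and in complete medium (10.9%). A turn of this kind, called lower in complete and higher in glutamine-free medium, was found for 11.1% of tested genes. Cdkn1b was -0.12 ± 0.0407 in glutamine-free medium (limma adjusted p = 0.0158), a call that was lost without p53-null glutamine-free replicate 1 (-0.10, adjusted p = 0.0609) or WT glutamine-free replicate 1 (-0.08, 0.0766), and a direction that turned to 0.02 (0.601) when libraries were rescaled to one sum.

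The responses themselves were compared by the difference of the 2 medium changes, p53-null minus WT, so a positive value means a smaller fall in the p53-null line. It was 0.74 ± 0.0394 for Cdkn2a, 0.83 ± 0.0377 for Cdkn2b, 1.76 ± 0.0491 for Cdkn2d and 0.29 ± 0.0576 for Cdkn1b (limma adjusted p = 1.17e-09, 2.43e-10, 2.34e-12 and 4.05e-04), so 4 of the 5 members were called higher, as were 46.4% of tested genes, with 38.4% called lower and 84.9% either way. The response of Cdkn2c gave no call, at 0.03 ± 0.0454 (adjusted p = 0.606) with a 95% interval of -0.07 to 0.12, and its sign turned under 4 other settings. Without p53-null glutamine-free replicate 2 it was called, at 0.07 (adjusted p = 0.0437). In rank among all tested genes the difference for Cdkn2d exceeded that of 97.8% and the difference for Cdkn2c that of 47.5%.

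**Figure D4:**
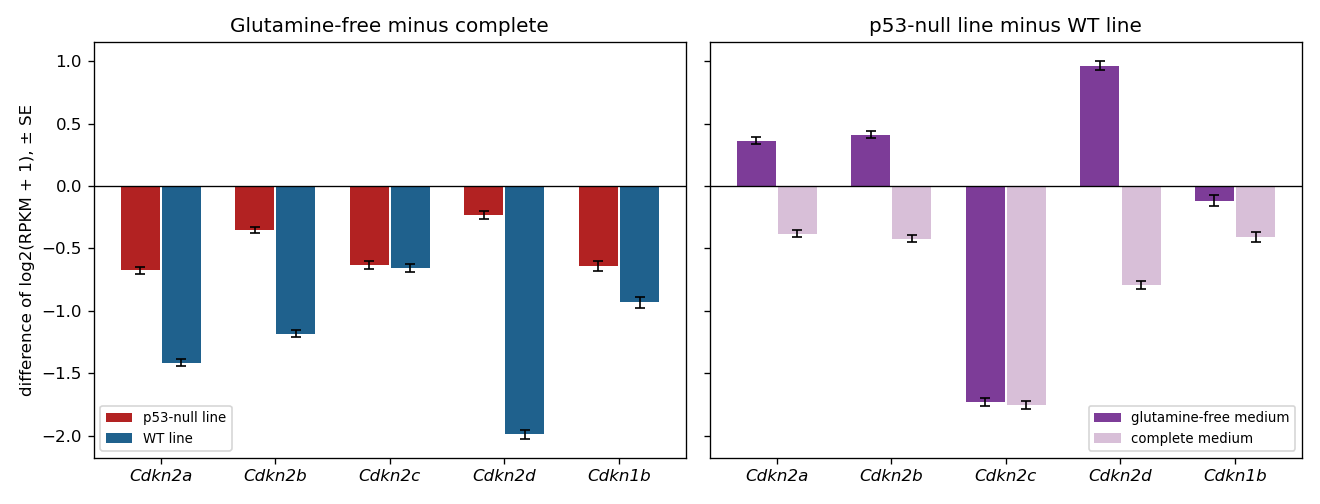
Differences of log2(RPKM + 1) with their SE for the 5 genes, glutamine-free minus complete in each line (left) and p53-null minus WT in each medium (right). All 10 medium changes are below 0, and Cdkn2a, Cdkn2b and Cdkn2d are above 0 in glutamine-free and below 0 in complete medium on the right.

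The kinases and cyclins that Ink4 proteins restrain did not move as a block. Of 8 Ink4 targets, 4 rose and 3 fell on withdrawal in p53-null cells and 3 rose and 3 fell in WT cells, with median log2 changes of 0.08 and 0.02. Over all tested genes 50.0% were called higher and 32.0% lower in p53-null cells and 46.0% higher and 44.0% lower in WT cells, and the Ink4 targets lay near these shares. Cdk4 fell in p53-null cells, at 182 ± 4.71 RPKM without and 275 ± 2.26 RPKM with glutamine, and rose in WT cells, at 270 ± 3.98 RPKM without and 170 ± 0.726 RPKM with it (limma adjusted p = 6.7e-12 and 4e-13). Cdk6 rose in both lines, with log2 changes of 0.75 ± 0.024 in p53-null and 0.87 ± 0.024 in WT cells. Among the D cyclins, Ccnd2 rose in both (98.8 ± 0.456 against 64.7 ± 0.484 RPKM in p53-null and 69.7 ± 0.691 against 29.6 ± 0.257 RPKM in WT cells), and Ccnd3 fell by log2 changes of -0.15 ± 0.035 in p53-null and -1.29 ± 0.035 in WT cells. Ccnd1 was higher in the p53-null line in both media, at 116 ± 0.995 against 37.6 ± 0.270 RPKM without glutamine and 91.8 ± 1.62 against 37.8 ± 0.763 RPKM with it. Rb1, which encodes the retinoblastoma protein, was lower in p53-null cells, at 4.04 ± 0.235 RPKM, than in WT cells, at 7.54 ± 0.205 RPKM, without glutamine, and at 4.11 ± 0.0685 and 9.30 ± 0.258 RPKM with it.

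Of 7 genes for the cyclins and kinases bound by Kip proteins or acting after them, 1 rose and 4 fell in p53-null cells (all tested genes: 50.0% higher, 32.0% lower) and 2 rose and 4 fell in WT cells (46.0% and 44.0%). The mitotic cyclin gene Ccnb2 had 12.2 ± 0.539 RPKM in p53-null glutamine-free against 26.5 ± 0.860 RPKM in p53-null complete cells, and 6.94 ± 0.273 RPKM in WT glutamine-free against 66.8 ± 1.46 RPKM in WT complete cells. Its 4 groups stood in the order that Cdkn2a, Cdkn2b and Cdkn2d showed, as did those of Ccnb1 and Ccna2. The same order was seen for Ccnd3 and Rbl2 of the Ink4 targets and for the collagen genes Col1a1 and Col3a1, so it was not particular to these cyclins. The share of all tested genes in this order was not counted. Of all tested genes, 11.1% were called lower in the p53-null line in complete and higher in glutamine-free medium, as this order requires. Ccna2, the S-phase and mitotic cyclin A gene, fell in both lines, by log2 changes of -0.41 ± 0.019 in p53-null and -1.02 ± 0.019 in WT cells. Cyclin E genes rose in WT cells, Ccne2 to 28.7 ± 1.66 RPKM without glutamine against 10.5 ± 0.680 RPKM with it. In p53-null cells Ccne1 fell to 13.2 ± 0.261 against 17.3 ± 0.797 RPKM.

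**Figure D5:**
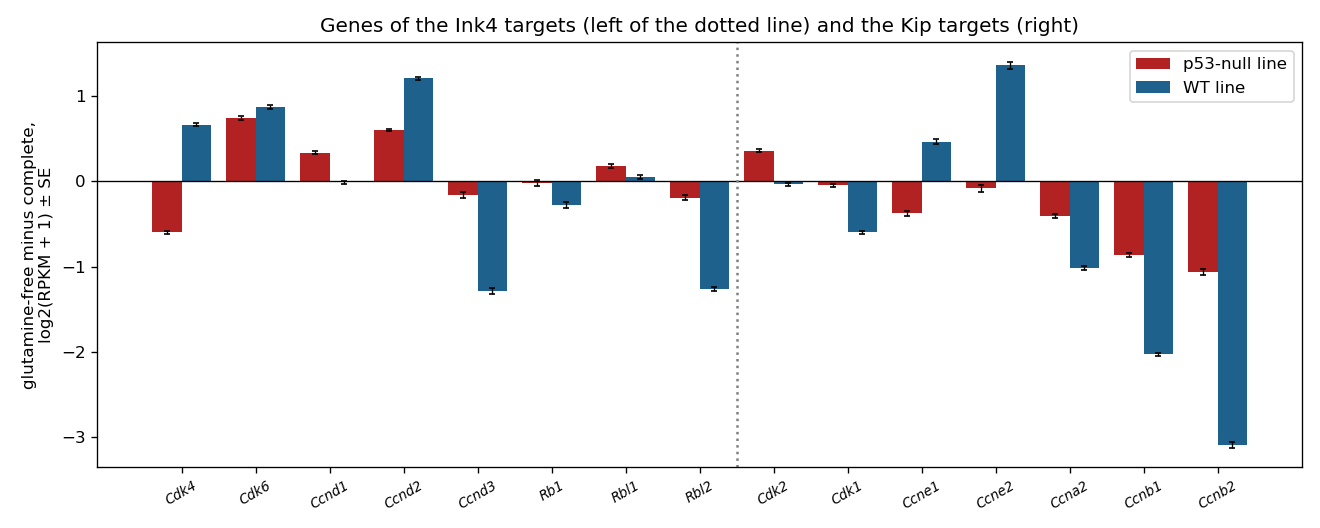
Change of log2(RPKM + 1) on glutamine withdrawal, with SE, for 8 Ink4 targets and 7 Kip targets in the p53-null and WT lines. Cdk4 points down in the p53-null and up in the WT line, while Ccnb1 and Ccnb2 point down in both and furthest in the WT line.

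Along the axis from Arf to p53, Trp53 rose on withdrawal in both lines while Cdkn2a fell. Its log2 change was 0.26 ± 0.022 in p53-null and 0.92 ± 0.022 in WT cells (limma adjusted p = 2.1e-07 and 1.6e-13). Cdkn1a, the Kip family gene left out of the members, also rose. It was at 1.84 ± 0.164 against 0.973 ± 0.242 RPKM in p53-null and at 16.1 ± 0.261 against 2.62 ± 0.328 RPKM in WT cells. Ccng1, of the same Arf-p53 list, fell in WT cells, to 8.05 ± 0.248 against 16.8 ± 0.158 RPKM. In p53-null cells Ccng1 gave no call, at 22.4 ± 0.205 against 21.5 ± 0.912 RPKM. Of the 6 genes of the list, 3 rose and 2 fell in p53-null cells (50.0% and 32.0% of all tested genes). In WT cells 5 rose and 1 fell (46.0% and 44.0%). Npm1, the nucleolar protein that holds Arf, rose to 863 ± 13.7 against 525 ± 5.19 RPKM in WT cells and was at 631 ± 5.58 against 771 ± 5.73 RPKM in p53-null cells, a log2 change of -0.29 ± 0.014 that became 0.07 with quantile normalization. Mdm2 was higher in the p53-null line, at 18.3 ± 0.409 against 12.5 ± 0.298 RPKM without glutamine and 15.9 ± 0.322 against 9.79 ± 0.278 RPKM with it. Cdkn2aip, which encodes a protein that binds Arf and was chosen after its values were seen, rose to 11.2 ± 0.154 against 5.10 ± 0.264 RPKM in p53-null cells and to 25.6 ± 0.609 against 8.18 ± 0.432 RPKM in WT cells.

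Genes known as repressors of the Ink4-Arf locus, chiefly of the Polycomb complexes, rose in 11 and fell in 5 of 20 tested on withdrawal in p53-null cells, and rose in 11 and fell in 8 in WT cells. The 11 that rose are a share near the 50.0% of all tested genes called higher in p53-null and the 46.0% in WT cells. Called lower were 32.0% of all tested genes in p53-null and 44.0% in WT cells. Cbx7 passed the filter through WT complete libraries alone, which fixed that it was among those lower in WT cells. The number that fell in p53-null cells was 3 with libraries rescaled to one sum, 8 with median centring, and 3 without p53-null glutamine-free replicate 1 or p53-null complete replicate 2. Bmi1, whose loss in mice raises Ink4a and Arf, was at 34.4 ± 0.323 against 28.9 ± 1.09 RPKM in p53-null and at 24.2 ± 1.05 against 10.4 ± 0.210 RPKM in WT cells, higher without glutamine in both (limma adjusted p = 1e-05 and 6.1e-13). Twist1 went the other way in WT cells, at 8.52 ± 0.590 against 26.5 ± 0.328 RPKM. Id1 fell in both lines, most in p53-null cells, at 5.99 ± 0.268 against 25.4 ± 0.620 RPKM. Tbx3 was at 3.01 ± 0.207 RPKM in WT glutamine-free and 4.83 ± 0.261 RPKM in WT complete cells. The means of the p53-null groups were no more than 0.0271 RPKM. Tbx3 passed the filter through WT libraries alone, which fixed that it was lower in the p53-null line in at least 1 medium.

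Among 12 genes taken here as activators of the locus, a role not tested in these cells, 10 rose and 1 fell in p53-null cells. The number that fell was 2 with median centring or quantile normalization. In WT cells 8 rose and 3 fell, and the median log2 changes were 0.65 in p53-null and 0.76 in WT cells. Over all tested genes 50.0% were called higher in p53-null and 46.0% in WT cells, with median changes of 0.08 and 0.01. Myc, which induces Arf when overproduced, was at 113 ± 1.11 against 37.0 ± 1.17 RPKM in p53-null and at 344 ± 2.32 against 60.7 ± 1.13 RPKM in WT cells. Dmtf1, whose product binds the Arf promoter, rose by 1.09 ± 0.027 on the log2 scale in each line, and Kdm6b, a demethylase of the Polycomb mark, by 0.99 ± 0.022 in p53-null and 1.08 ± 0.022 in WT cells. Egr1 split the lines, at 9.35 ± 0.279 against 2.91 ± 0.0245 RPKM in p53-null and 2.57 ± 0.182 against 6.87 ± 0.115 RPKM in WT cells, a difference of the responses of 2.55 ± 0.051 (limma adjusted p = 1.2e-13). Of 11 genes for Kip1 turnover and control, 7 rose and 2 fell in p53-null cells (4 fell with median centring) and 7 rose and 4 fell in WT cells, beside 50.0% of all tested genes higher and 32.0% lower in p53-null and 46.0% and 44.0% in WT cells. Skp2, the ubiquitin ligase subunit that targets Kip1, rose by 0.21 ± 0.024 and 0.44 ± 0.024 on the log2 scale in p53-null and WT cells. The 3 tested FoxO genes, which encode factors that activate Cdkn1b, moved in 3 ways. Foxo4 fell in both lines, by log2 changes of -0.43 ± 0.035 in p53-null and -1.20 ± 0.035 in WT cells, and Foxo3 rose in both, by 0.48 ± 0.038 and 0.37 ± 0.038. Foxo1 was at 8.54 ± 0.156 against 18.9 ± 0.309 RPKM in WT cells, lower without glutamine, and at 5.61 ± 0.0443 against 4.34 ± 0.0397 RPKM in p53-null cells, higher without it.

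Of 11 genes of the imprinted region of chromosome 7 that holds Cdkn1c, 4 passed the filter, and Kcnq1, Phlda2, Slc22a18, Tspan32 and Ascl2 had group means of at most 0.188 RPKM. H19, a noncoding gene expressed from the maternal copy, was below the filter too, at 0.0367 ± 0.0164 RPKM in p53-null glutamine-free and 0.756 ± 0.115 RPKM in p53-null complete cells, and at 0.0151 ± 0.0171 RPKM in WT glutamine-free and 0.0830 ± 0.0171 RPKM in WT complete cells. The noncoding Kcnq1ot1, which silences the domain on the paternal chromosome, averaged between 0.355 and 0.501 RPKM in the 4 groups. Igf2, a growth factor gene expressed from the paternal copy, was at 15.5 ± 0.874 RPKM in p53-null and 0.0351 ± 0.0102 RPKM in WT cells without glutamine, and at 26.8 ± 0.277 and 0.155 ± 0.0176 RPKM with it. Igf2 passed the filter through p53-null libraries alone, which fixed that it was higher in the p53-null line in at least 1 medium. Cd81 fell in both lines, by log2 changes of -0.61 ± 0.029 in p53-null and -1.95 ± 0.029 in WT cells.

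As a description over 12 libraries that fall into 4 groups, the genes most like each member were taken by Pearson r of log2(RPKM + 1) among 10195 others. For Cdkn2a they were Col3a1, a fibrillar collagen gene (r = 0.9978), Nav1 and Arsa. Mmab, C1rl and Golga2 followed Cdkn2b at 0.9954 to 0.9960. Those nearest Cdkn2c were Ap2m1, Prrx1 and Prdx1 at 0.9979 to 0.9984. Cdkn2d was closest to Pdpn, Fam20b and Dlgap5, the last a spindle protein gene, at 0.9966 to 0.9970, and Cdkn1b to Acaa1a at 0.9955 and Map1a at 0.9933. Among the members, r was 0.984 between Cdkn2a and Cdkn2b and 0.979 between Cdkn2b and Cdkn2d, while Cdkn2c reached 0.217 with Cdkn2d and 0.612 with Cdkn1b.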

How the data were processed

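Total RNA of 12 samples was made into libraries with an Illumina TruSeq V2 kit, per the labels' protocols. The submitters' processing notes name CASAVA 1.8, HISAT2 2.0.4, Partek and mm10, with no order, and leave the annotation and counting rules not given in the sources used here. The deposited table holds RPKM, made by the authors, with 1 value per gene and sample. RPKM keeps no read count, so no count test was run.

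Values were transformed as log2(RPKM + 1), which understates changes of low genes. A limma fit on the 4 group means with a mean-variance trend (limma 3.58.1, R 4.3.3) used the 11461 entries with at least 1 RPKM in at least 3 samples. For each of 5 comparisons, the Benjamini-Hochberg adjustment ran over all tested genes, with calls under 0.05. The fit was tested on simulated data. Coordinates come from GENCODE M21, which holds 18835 of the names, and promoters from RefSeq for all 5 members. The members and lists were chosen with earlier results of these data known. Named genes are the 6 members, Trp53, and up to 4 called genes of the largest change per list and comparison, not all printed; Skp2 and Kcnq1ot1 were named outside it, after their values were seen, as was Cdkn2aip. Of the genes most like each member, 1 is not reported here. Alternatives were pseudocounts of 0.1 and 0.01, no filter, 3 scalings, a replicate block, no trend, pairwise fits and leaving out each library.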

Additional observations from a re-analysis of the deposited data

Results flagged for a closer look

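The responses of 4 members to glutamine withdrawal differed between the lines by the test of the difference itself, p53-null minus WT on the log2(RPKM + 1) scale in the limma fit. The differences were 0.74 for Cdkn2a, 0.83 for Cdkn2b, 1.76 for Cdkn2d and 0.29 for Cdkn1b. Each gene fell in both lines and by less in the p53-null line. Since 84.9% of all tested genes also differed in response, the calls by themselves do not set these genes apart. Groups of 3 libraries are too small for a check of single outlying samples.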

How the results depend on the processing

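Of 400 member changes under other settings, 392 kept their direction and side of the threshold, 5 turned, 1 of which (Cdkn1b, below) also lost its call, and 3 others crossed the threshold. With libraries left out, 9161 to 9187 genes were called on withdrawal in p53-null and 10173 to 10256 in WT cells. The log2 difference of Cdkn1b between lines in glutamine-free medium became 0.0228 with libraries rescaled to one sum. That rescaling moved the median of all genes by 0.13 in this comparison and median centring by -0.14, and relative to the median of all genes Cdkn1b was -0.22 as deposited, -0.21 rescaled and -0.22 centred. The difference of responses of Cdkn2c became -0.0304 and -0.0371 with pseudocounts of 0.1 and 0.01, -0.0744 with median centring and -0.0146 with quantile normalization. Npm1 in p53-null cells became 0.0653 with quantile normalization. The cause was not tested. In p53-null cells median centring also moved the median of all genes by -0.11 and the share of higher among called genes to 47.6%, against 61.0% as deposited, and the members' changes relative to that median were then -0.32 to -0.76. With any 1 library left out, 4 to 5 members were past the threshold in the line comparison without glutamine, where Cdkn1b was lost, and 4 to 5 in the difference of responses, where Cdkn2c was gained. In the other 3 comparisons all 5 were past it.

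No label says that the replicate numbers in the titles pair the samples. Same-numbered libraries of a line correlated at -0.07 to 0.06 in their deviations over 6 pairs, and 2 of 6 correlated best with their own number. No shared effect of a number was seen, but so few libraries cannot show whether equal numbers were handled together. With the replicate block, 9379 genes passed in p53-null and 10315 in WT cells on withdrawal, against 9403 and 10321 without it, and no call of a member changed. Depth limits low genes such as Kcnq1ot1, whose read counts are unknown.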
